A study of Aedes aegypti with 12 samples.

Results

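Small RNA pathway and germline genes were followed in the brain and fat body of Aedes aegypti, the yellow fever mosquito. They were taken from the gene descriptions in the deposited tables, which had to name a PIWI or Argonaute protein, another piRNA factor, an enzyme of miRNA or siRNA processing, or a germline regulator. The words matched 35 genes, and 3 were dropped because "bam" was only part of "carbamoyl". This left 32 of 19256 genes. By role, 10 are PIWI and Argonaute proteins, 13 are piRNA factors, 2 are enzymes of miRNA and siRNA processing, and 7 are germline mRNA regulators and germ cell factors. Of the 32, 22 had at least 1 TPM (the authors' transcript level, scaled for gene length and library size) in a wild-type brain library, so the name germline does not say where their RNA was found. Apart from bam, 7 of the words were in no gene description, among them piwi, zucchini, loquacious, pasha and drosha. This does not mean that such genes are absent, as the genes with a PIWI alias are described as aubergine or aubergine-like.

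Small RNAs guide Argonaute proteins to RNAs of matching sequence. The enzyme Dicer cuts double-stranded RNA into siRNAs, which in insects carry much of the antiviral defence, while miRNAs tune the cell's own mRNAs. The piRNA pathway does not need Dicer: PIWI proteins are loaded with piRNAs, chiefly in the germline, and silence transposons, with helicases such as vasa and spindle-E and with tudor-domain proteins as scaffolds. In Drosophila many of these proteins gather in the nuage around germ cell nuclei, and oskar and nanos set up the germ cells of the embryo. Aedes mosquitoes have an enlarged PIWI family, and some of its members are also active in somatic tissue.

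Polyadenylated RNA was sequenced from 4 groups of 3 libraries: fat body of AaegGr34 mutants, fat body of wild type, brain of AaegGr34 mutants and brain of wild type. The wild-type strain is Liverpool, and AaegGr34 is a gustatory receptor gene. The labels state neither the mutant allele nor the sex, age, feeding state or number of the animals behind each library. The stocks had constant access to sucrose and were blood-fed through a membrane. The design text calls the libraries biological replicates but does not say how they were separated, so each p-value rests on the spread among 3 libraries per group, which may be partly technical.

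Total counts per library ran from 18.5 M to 31.3 M. The mutated gene (Gr34, LOC5570009) gave 2, 11 and 2 counts in Gr34 fat bodies against 2, 4 and 16 in wild-type fat bodies, and 6, 11 and 28 in Gr34 brains against 24, 22 and 7 in wild-type brains, so its mRNA level does not check the labels. Between the wild-type tissues, 21 of 27 neuron markers tested had less RNA in fat body and 3 had more. Of 14 fat body markers, 9 had more RNA in fat body and 0 had less. Of 39 testis and sperm markers, 14 had more and 16 had less. The fat body libraries also held ovary transcripts in very unequal amounts. The summed level of 31 ovary and egg markers was 510, 2759 and 879 TPM in Gr34 fat bodies and 322, 1760 and 2943 TPM in wild-type fat bodies. It lay between 270 and 283 TPM in Gr34 brains and between 285 and 306 TPM in wild-type brains. Much of the brain sum came from list genes that were lower in fat body, so it does not measure ovary RNA in brain. Chorion peroxidase LOC5575607 averaged 75.6 TPM in Gr34 brains and 92.1 TPM in wild-type brains, against 0.648 TPM in Gr34 fat bodies and 0.319 TPM in wild-type fat bodies. XlCOF6 (LOC5580096) averaged 71.7 and 73.4 TPM in the same brains, against 23.1 and 29.6 TPM in the same fat bodies. The putative vitellogenin receptor (LOC5569465), through which oocytes take up yolk protein, had 35.2, 298 and 69.9 TPM in Gr34 fat bodies and 34.9, 159 and 229 TPM in wild-type fat bodies. It was listed at 0 in every brain library but 1, which had 0.027 TPM. The 7 genes described as vitelline membrane proteins, parts of the eggshell, were low throughout. The highest of them in fat body, 15a-3-like (LOC5568248), had 0.687, 0.698 and 1.59 TPM in Gr34 fat bodies and 0.088, 1.12 and 2.82 TPM in wild-type fat bodies, against at most 0.153 TPM in brain, whereas 15a-1 (LOC5577129) had at most 0.365 TPM in Gr34 fat bodies, was listed at 0 in wild-type fat bodies and reached 1.39 TPM in a wild-type brain.

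The PIWI and Argonaute genes showed 3 kinds of level. Argonaute-2 (LOC23687671, alias AGO2; chromosome 3, 264135283 to 264190746, minus strand, AaegL5.0), the siRNA-binding Argonaute of antiviral defence in flies and mosquitoes, was the most abundant of them in brain. It had 41.3, 57.3 and 54.1 TPM in Gr34 fat bodies and 41.2, 57.9 and 49.1 TPM in wild-type fat bodies. In brain it had 119, 115 and 88.2 TPM in Gr34 and 97.0, 103 and 86.2 TPM in wild type, so every brain library was above every fat body library. A second gene described as argonaute-2 (LOC5566763) carries the alias AGO1a_b, which is the name of the miRNA-binding Argonaute. It had 8.55 to 18.1 TPM in Gr34 fat bodies and 8.52 to 20.5 TPM in wild-type fat bodies, against 17.6 to 21.9 TPM in Gr34 brains and 19.2 to 24.8 TPM in wild-type brains.

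The piRNA-binding members argonaute-3 (LOC5569680), PIWI4 (LOC5569521), PIWI5 (LOC5577490) and PIWI6 (LOC5577491) were present in every library of both tissues. PIWI5 had the narrowest range over the 12 libraries of these 4 genes, with 25.8 to 41.0 TPM in Gr34 fat bodies, 31.2 to 36.4 TPM in wild-type fat bodies, 34.1 to 38.4 TPM in Gr34 brains and 32.2 to 34.8 TPM in wild-type brains. Argonaute-3, the partner of PIWI proteins in the ping-pong cycle of piRNA production, had 36.4, 99.4 and 50.5 TPM in Gr34 fat bodies and 31.1, 65.8 and 76.4 TPM in wild-type fat bodies. In brain it had 24.9 to 30.5 TPM in Gr34 and 28.6 to 31.6 TPM in wild type. PIWI4, known in Aedes cells for antiviral activity, had 21.8 to 56.3 TPM in Gr34 fat bodies and 25.3 to 62.9 TPM in wild-type fat bodies, against 25.6 to 26.5 TPM in Gr34 brains and 25.8 to 30.3 TPM in wild-type brains. PIWI6 had 19.0 to 60.4 TPM in Gr34 fat bodies and 20.1 to 59.6 TPM in wild-type fat bodies, against 29.3 to 35.0 TPM in Gr34 brains and 32.1 to 35.6 TPM in wild-type brains. The PIWI5 and PIWI6 genes overlap on the same strand of chromosome 3, so some of their reads cannot be assigned with certainty.

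PIWI2 (LOC5570107; chromosome 1, 62489534 to 62494276, plus strand) and PIWI3 (LOC5578405; chromosome 1, 62468527 to 62479655, minus strand) were found in every fat body library and were at or near 0 in brain. The 2 genes lie 9.9 kb apart. PIWI3 had 21.9, 118 and 35.3 TPM in Gr34 fat bodies and 11.0, 83.9 and 80.3 TPM in wild-type fat bodies. It had no count in any Gr34 brain and 11 counts over the 3 wild-type brains, with 3 or 4 in each. PIWI2 had 9.36, 64.9 and 18.6 TPM in Gr34 fat bodies and 2.88, 29.8 and 43.4 TPM in wild-type fat bodies. It had no count in any Gr34 brain and 16 counts over the wild-type brains, 15 of them in 1 library. PIWI7 (LOC110680865) and an aubergine gene with no alias (LOC5567714) had at most 0.118 TPM in any library and passed the filter on low counts in no comparison.

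Among the piRNA factors, vasa (LOC5565755; chromosome 2, 281679164 to 281700584, minus strand), the germline helicase that amplifies piRNAs, had the widest range between tissues of those present in both. It had 104, 653 and 208 TPM in Gr34 fat bodies and 88.2, 459 and 619 TPM in wild-type fat bodies. Its level in brain was 9.60, 9.33 and 7.63 TPM in Gr34 and 8.13, 9.04 and 6.15 TPM in wild type. The highest fat body library was 6.28 times the lowest in Gr34 and 7.02 times the lowest in wild type, while the brain values of both genotypes overlapped.

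Families within this group were split between tissues. One maelstrom gene (LOC5570832, alias mael), whose fly counterpart acts in piRNA-guided transposon silencing, had 36.9, 188 and 57.6 TPM in Gr34 fat bodies and 15.6, 134 and 161 TPM in wild-type fat bodies. It gave 1 count over the 3 Gr34 brains and 4 over the 3 wild-type brains. The other maelstrom gene (LOC5567819) had 21.2 to 78.0 TPM in Gr34 fat bodies and 15.4 to 84.2 TPM in wild-type fat bodies, and its brain values, 39.5 to 49.6 TPM in Gr34 and 34.1 to 53.9 TPM in wild type, fell within those ranges. Gametocyte-specific factor 1 (GTSF1) proteins are small zinc-finger partners of PIWI proteins, known in flies as asterix. Here GTSF1 (LOC5568237) had 16.7 to 32.7 TPM in Gr34 fat bodies and 11.7 to 36.7 TPM in wild-type fat bodies, against 20.8 to 21.3 TPM in Gr34 brains and 17.8 to 19.0 TPM in wild-type brains. Its homolog LOC5570814 had 21.2, 83.0 and 30.6 TPM in Gr34 fat bodies and 8.51, 75.2 and 122 TPM in wild-type fat bodies, and stayed at or under 0.195 TPM in every brain library. The second homolog, LOC5571152, is described with the genotype comparison in brain.

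The tudor-domain genes and spindle-E were present in every library. Maternal protein tudor (LOC5569712) ran from 11.7 to 57.7 TPM in Gr34 fat bodies and from 12.9 to 58.5 TPM in wild-type fat bodies, against 32.3 to 36.0 TPM in Gr34 brains and 24.8 to 35.1 TPM in wild-type brains. Spindle-E (LOC5577484) ran from 15.9 to 76.2 TPM in Gr34 fat bodies and from 16.3 to 66.0 TPM in wild-type fat bodies, against 29.1 to 38.4 TPM in Gr34 brains and 21.2 to 30.7 TPM in wild-type brains. The tudor and KH domain gene (LOC5580326), whose counterpart in moths and mammals helps a nuclease to trim piRNA ends, had at most 29.5 TPM in Gr34 fat bodies and 25.4 TPM in wild-type fat bodies, below its lowest brain value of 30.5 TPM. On the count scale, corrected for composition, this gene did not differ in the same direction: its fitted log2 fold change of fat body over brain was 0.12 (SE 0.23) in Gr34 and 0.13 (SE 0.26) in wild type, neither past the test. Tudor domain 1 (LOC5565017) averaged 19.5 ± 15.4 TPM in Gr34 fat bodies and 20.5 ± 13.5 TPM in wild-type fat bodies, against 8.52 ± 0.563 TPM in Gr34 brains and 9.49 ± 0.528 TPM in wild-type brains (SD, n = 3 each). Tudor domain 3 (LOC5570560) and 7A (LOC5573221) varied less among fat body libraries, the first with 10.02 to 37.0 TPM in Gr34 and 8.40 to 31.9 TPM in wild type, the second with 13.4 to 33.4 TPM in Gr34 and 8.82 to 27.6 TPM in wild type. Ribonuclease 3 (LOC5570831), of the enzyme class that cuts double-stranded RNA, is annotated with pre-miRNA processing. It averaged 7.05 ± 3.97 TPM in Gr34 fat bodies and 7.86 ± 3.78 TPM in wild-type fat bodies, against 8.11 ± 1.53 TPM in Gr34 brains and 8.12 ± 0.66 TPM in wild-type brains (SD, n = 3 each).

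**Figure D1:**
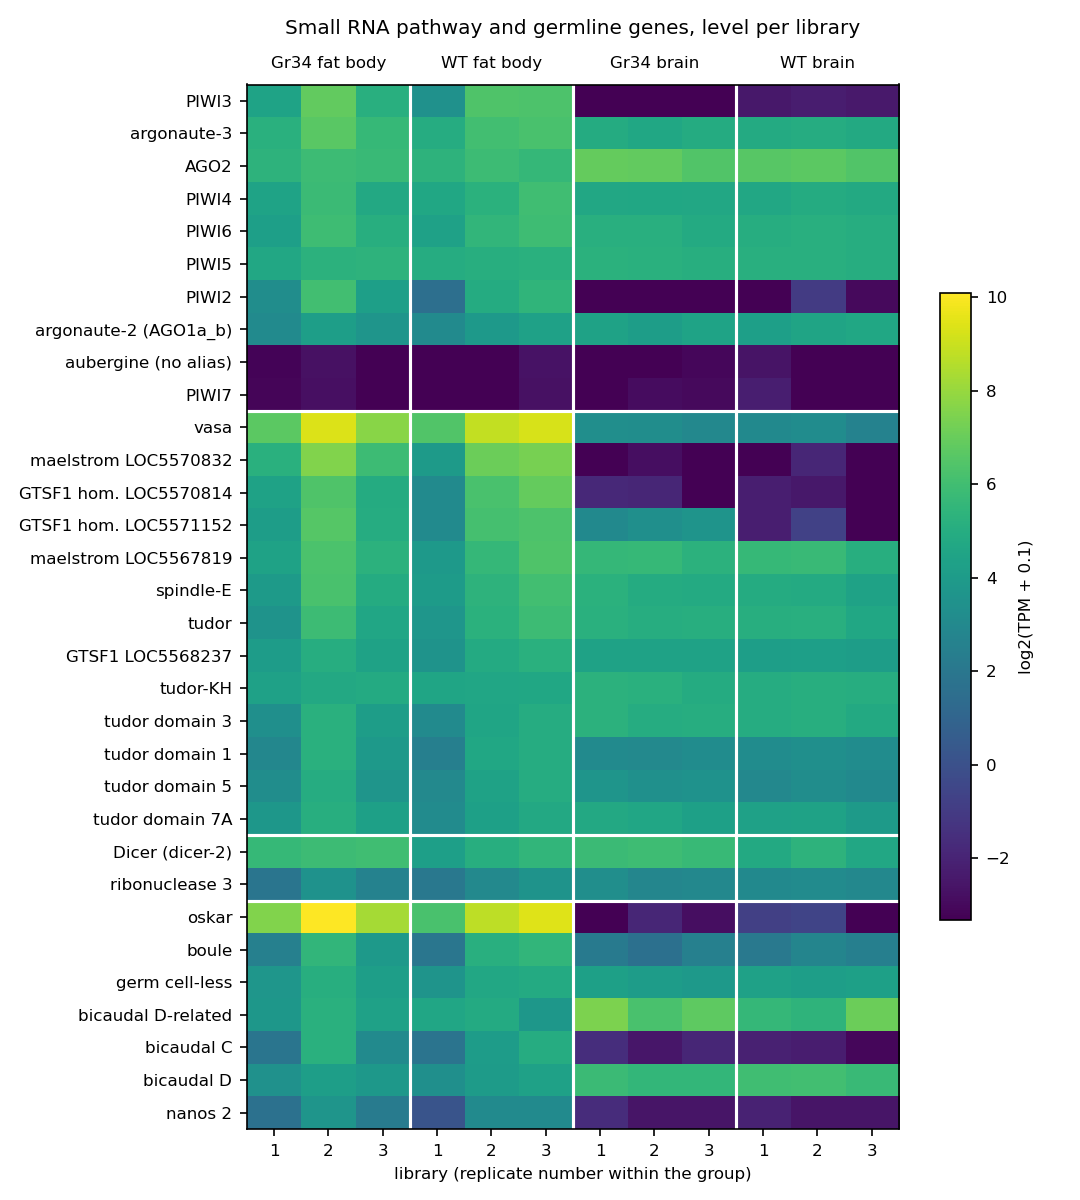
Level of the 32 genes in each of the 12 libraries, coloured by log2(TPM + 0.1), with 3 libraries per group and white lines between roles. PIWI2, PIWI3, one maelstrom gene, one GTSF1 homolog, oskar, bicaudal C and nanos 2 are dark in all brain libraries and bright in fat body, while GTSF1 homolog LOC5571152 is dark in wild-type brains only.

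The highest level of any of these genes was that of oskar, a germline regulator. Oskar (LOC5577338; chromosome 3, 184139917 to 184154867, plus strand), which builds the germ plasm in flies, had 187, 1085 and 305 TPM in Gr34 fat bodies and 76.1, 434 and 701 TPM in wild-type fat bodies. It gave 5 counts over the 3 Gr34 brains and 30 over the 3 wild-type brains. Nanos homolog 2 (LOC5575034), a translational repressor of the germline, was much lower, with 3.14, 12.7 and 4.66 TPM in Gr34 fat bodies and 1.01, 8.31 and 8.35 TPM in wild-type fat bodies. Bicaudal C (LOC5572940), an RNA-binding protein of fly oogenesis, had 3.64 to 35.8 TPM in Gr34 fat bodies and 3.51 to 31.9 TPM in wild-type fat bodies, and at most 0.234 TPM in brain. Boule (LOC5571818), known in flies for its need in male meiosis, had 5.53, 45.9 and 14.7 TPM in Gr34 fat bodies and 3.74, 34.5 and 45.9 TPM in wild-type fat bodies.

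Bicaudal D (LOC5565680), an adaptor that links mRNA cargo to dynein in oocytes and neurons of flies, ran the other way. It had 10.9, 17.99 and 14.0 TPM in Gr34 fat bodies and 10.2, 16.5 and 20.3 TPM in wild-type fat bodies, against 57.0, 46.7 and 47.6 TPM in Gr34 brains and 61.9, 64.7 and 54.5 TPM in wild-type brains. Germ cell-less (LOC5567176), needed for germ cell formation in fly embryos, was present in both tissues, with 21.5 ± 10.6 TPM in Gr34 fat bodies and 22.7 ± 9.26 TPM in wild-type fat bodies, against 17.2 ± 2.499 TPM in Gr34 brains and 19.2 ± 0.822 TPM in wild-type brains (mean ± SD, n = 3 each). The bicaudal D-related gene (LOC5571415) varied widely within each genotype in brain, with 173, 74.3 and 107 TPM in Gr34 and 48.0, 41.5 and 135 TPM in wild type, so its genotypes overlapped.

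The comparison of fat body with brain was made within each genotype, on libraries that the 2 fits do not share. In Gr34 mutants, 17 of the 30 members tested were higher in fat body and 2 were lower (edgeR quasi-likelihood test, adjusted p under 0.05), where 64.5% of 12069 genes were called, 32.8% higher and 31.6% lower. In wild type, 18 members were higher in fat body and 1 was lower, where 64.7% of 12088 genes were called, 32% higher and 32.7% lower. The same 17 members were higher, and bicaudal D lower, in both. Bicaudal D-related was called in Gr34 alone and spindle-E in wild type alone, and the test of the difference between genotypes called neither (adjusted p 0.96 for bicaudal D-related and 1.00 for spindle-E). The median log2 fold change of the members tested was 0.74 in Gr34 and 0.90 in wild type, beside 0.06 in Gr34 and 0.02 in wild type over all genes tested. On the TPM scale the median of all genes moved to -0.42 in Gr34 and -0.40 in wild type, and members called became 9 higher and 3 lower in each genotype (limma on log2(TPM + 1)). That split was 17 to 2 in Gr34 and 18 to 1 in wild type above. Over all genes the TPM fit called 2224 higher and 4783 lower of 13270 in Gr34. In wild type it called 2487 higher and 4928 lower of 13236. No member called on the count scale changed direction on the TPM scale.

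Of the members called higher in fat body, 8 differed at least 8-fold in Gr34 and 9 in wild type. The largest in wild type were the maelstrom gene LOC5570832 at a log2 fold change of 11.09 (SE 1.14, adjusted p 0.000184), oskar at 10.36 (SE 1.05) and GTSF1 homolog LOC5570814 at 9.87 (SE 1.09). These 3 genes have almost no counts in brain, so the fitted values depend on few reads. For PIWI2 and PIWI3, whose Gr34 brain libraries hold no count, the Gr34 fat body level was at least 1360-fold and at least 2530-fold higher, taking 3 counts over the 3 brain libraries as the floor. These bounds cover counting error only. Vasa was higher in fat body 45.1-fold in Gr34 (log2 SE 0.47, adjusted p 7.7e-05) and 60.7-fold in wild type (log2 SE 0.55, adjusted p 0.000123). Bicaudal C had a log2 fold change of 6.88 (SE 0.77) in Gr34 and 7.79 (SE 0.79) in wild type, and nanos 2 one of 6.13 (SE 0.56) in Gr34 and 6.08 (SE 0.81) in wild type.

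Smaller differences were found among genes present in both tissues. Argonaute-3 had a log2 fold change of 1.58 (SE 0.19, adjusted p 0.000329) in Gr34 and 1.34 (SE 0.18, adjusted p 0.000572) in wild type. PIWI4 had one of 0.89 (SE 0.18) in Gr34 and 0.97 (SE 0.19) in wild type. Both genes kept the call with each library left out, but not under every other alternative. Of 14 alternatives, PIWI4 was called in 11 in Gr34 and 12 in wild type, argonaute-3 in 13 and 12. The lowest log2 fold change of PIWI4 among them was 0.30 in Gr34 and 0.47 in wild type. Bicaudal D was lower in fat body, with a log2 fold change of -1.26 (SE 0.17, adjusted p 0.000518) in Gr34 and -1.52 (SE 0.17, adjusted p 0.000219) in wild type. AGO2, the AGO1a_b gene, PIWI5, Dicer, ribonuclease 3, tudor, tudor-KH, tudor domain 3 and 7A and the maelstrom gene LOC5567819 passed the test in neither genotype. Another 5 calls were close to the threshold. In wild type, PIWI6, germ cell-less, spindle-E and tudor domain 1 lost the call without any 1 of the 3 wild-type brain libraries, and GTSF1 (LOC5568237) without replicate 1 or 2, with adjusted p up to 0.0932 for PIWI6, 0.122 for germ cell-less, 0.0858 for spindle-E, 0.059 for tudor domain 1 and 0.0724 for GTSF1. Germ cell-less also lost it without wild-type fat body replicate 2 (adjusted p 0.058). In Gr34, PIWI6 lost the call without any 1 of the 3 Gr34 brain libraries or Gr34 fat body replicate 3 (adjusted p up to 0.084), and GTSF1 without Gr34 brain replicate 1 or 2 (adjusted p up to 0.0715). In whole tissue, fewer cells of a type and less RNA per cell cannot be told apart. Of the ovary and egg markers, 10 were higher and 5 lower in fat body, of 23 tested in Gr34 and of 21 tested in wild type. Their median log2 fold change was -0.041 in Gr34 and 0.915 in wild type, beside 0.0624 and 0.0235 over all genes. Their part in the tissue difference was not tested.

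**Figure D2:**
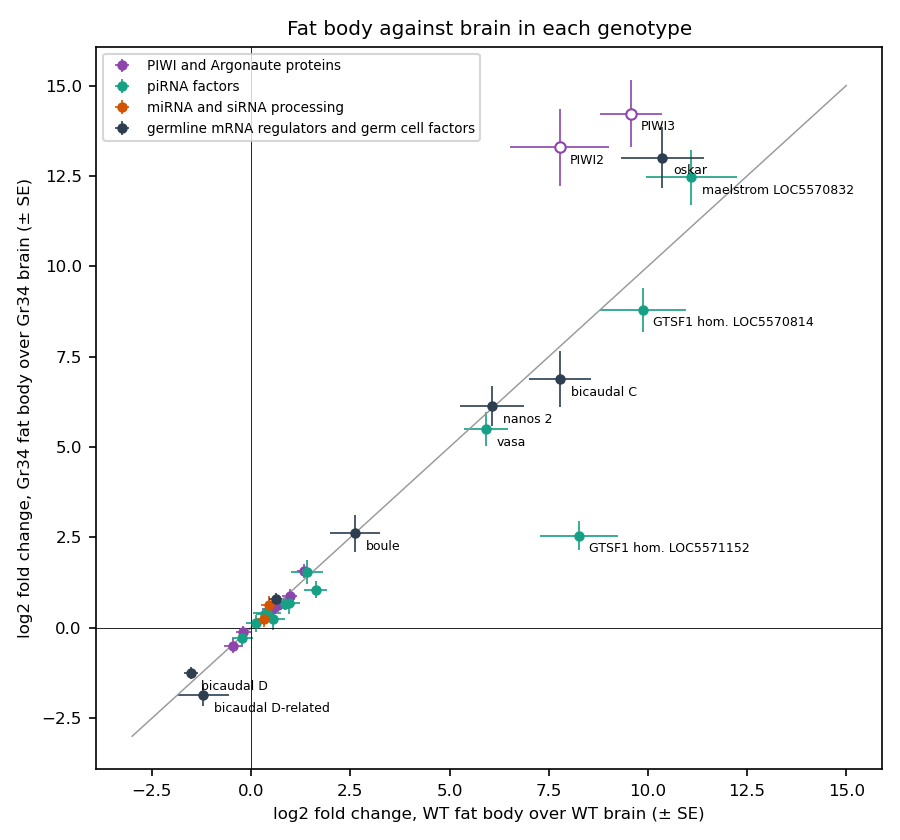
Log2 fold change of fat body over brain for the 30 members tested, wild type on the x axis and Gr34 on the y axis, with SE bars and colours for roles. Most genes lie near the line of equal change, bicaudal D and bicaudal D-related lie below 0, and GTSF1 homolog LOC5571152 lies far under the line at 2.54 in Gr34 and 8.26 in wild type. Open circles are PIWI2 and PIWI3, for which the fitted Gr34 value rests on brain libraries with no count and is no bound.

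Other genes of the same pathways were taken from a list of partners outside the rule. Of 21 small RNA partners, 20 were tested, and 15 were higher and 1 lower in fat body in each genotype, with a median log2 fold change of 1.20 in Gr34 and 1.25 in wild type. The putative helicase mov-10-B.1 (LOC5571915), of the family of the fly piRNA helicase armitage, had 3.64, 23.0 and 6.20 TPM in Gr34 fat bodies and 3.28, 20.2 and 23.98 TPM in wild-type fat bodies, and at most 0.012 TPM in any brain library. Translin (LOC5564517), a subunit of the C3PO nuclease of siRNA loading, had a log2 fold change of 1.76 (SE 0.21) in Gr34 and 1.81 (SE 0.20) in wild type. Of 10 germline mRNA partners, 6 were higher and 3 lower in each genotype. Cup (LOC5575445), a translational repressor in fly oocytes, had 76.0, 342 and 111 TPM in Gr34 fat bodies and 28.9, 201 and 275 TPM in wild-type fat bodies, against at most 0.126 TPM in Gr34 brains and 0.088 TPM in wild-type brains. Exuperantia-2 (LOC5572898), a factor of mRNA localisation in fly oocytes that is also on the ovary marker list, was listed at 0 TPM in 5 of the 6 brain libraries and had 103 to 391.6 TPM in Gr34 fat bodies and 42.7 to 672 TPM in wild-type fat bodies. The 2 CPEB genes on the list, regulators of poly(A) tails, ran in opposite directions. CPEB1 (LOC5574593) had a log2 fold change of 4.98 (SE 0.51) in Gr34 and 4.87 (SE 0.55) in wild type, and CPEB2 (LOC5575787) one of -4.99 (SE 0.42) in Gr34 and -4.75 (SE 0.33) in wild type.

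The question of the study was what differs between AaegGr34 mutants and wild type within each tissue. In brain, 2 of the 23 members tested were higher in Gr34 and 0 were lower, beside 8.86% of all 11848 genes tested, with 4.6% higher and 4.26% lower. The 2 were GTSF1 homolog LOC5571152 and Dicer. The median log2 fold change of the 23 members was 0.093, beside 0.00607 over all genes. The 9 members not tested had too few brain counts.

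GTSF1 homolog LOC5571152 (chromosome 2, 241343619 to 241365806, minus strand, 5 exons, AaegL5.0) had 8.20, 10.2 and 12.1 TPM in Gr34 brains and 0.119, 0.499 and 0 TPM in wild-type brains. In counts this was 85.5 to 142 per Gr34 brain and 0 to 6 per wild-type brain. Every Gr34 brain stood far above every wild-type brain. In CPM, counts scaled for library size and composition (TMM), it averaged 5.55 ± 1.33 in Gr34 and 0.107 ± 0.133 in wild type (SD, n = 3 each), a log2 fold change of 5.61 (SE 0.61, edgeR quasi-likelihood adjusted p 0.0029). It was called under each of the 14 alternatives run for brain, with log2 fold changes from 5.16 to 6.96 when 1 library was left out. The gene contains an uncharacterized gene on the same strand (LOC110676503), whose reads may not be separable from its own.

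Other germline genes were at or near 0 in the same brains. Oskar, the maelstrom gene LOC5570832 and GTSF1 homolog LOC5570814 had 5, 1 and 4 counts over the 3 Gr34 brains, against 30, 4 and 3 over the 3 wild-type brains. The vitellogenin receptor was listed at 0 TPM in all 3 Gr34 brains. Vasa was at 7.63 to 9.60 TPM in Gr34 brains and 6.15 to 9.04 TPM in wild-type brains, with a log2 fold change of 0.18 (SE 0.13, adjusted p 0.50). Of 15 ovary and egg markers tested in brain, 0 were called by edgeR or DESeq2, and 0 had an unadjusted p under 0.05. Those tested were list genes with enough brain counts, such as XlCOF6 (LOC5580096), with a mean of 71.7 TPM in Gr34 brains and 73.4 TPM in wild-type brains. The vitellogenin receptor and exuperantia-2 had too few brain counts, so this test does not cover them. The 25 fat body markers summed to 387 to 413 TPM in Gr34 brains and 291 to 355 TPM in wild-type brains, so the genotypes did not overlap. Of 13 tested, 1 was called higher and 10 had an unadjusted p under 0.05 in edgeR, with a median log2 fold change of 0.90, and DESeq2 called 6. Over all genes, 2705 of 11848 had an unadjusted p under 0.05 in edgeR, and DESeq2 called 915 higher and 815 lower of 14753. The same list summed to 562.3 to 877.3 TPM in Gr34 fat bodies and 484.8 to 532.5 TPM in wild-type fat bodies. Between the Gr34 tissues, 5 of 14 tested were higher in fat body and 1 was lower. The part of the fat body markers in the brain results was not tested.

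Dicer (LOC5579924, alias dicer-2; chromosome 3, 368335903 to 368378350, plus strand, 11 exons), the enzyme that makes siRNAs in flies, had 55.6, 59.4 and 53.0 TPM in Gr34 brains and 27.8, 40.7 and 26.2 TPM in wild-type brains. The genotypes did not overlap. It averaged 179 ± 13.1 CPM in Gr34 and 101 ± 19.1 CPM in wild type (SD, n = 3 each), a log2 fold change of 0.82 (SE 0.14, adjusted p 0.0146). The call was lost without Gr34 brain replicate 1 (adjusted p 0.0507), without wild-type brain replicate 1 (adjusted p 0.0583), and when all 12 libraries shared one estimate of spread (adjusted p 0.129). Its log2 fold change stayed between 0.74 and 0.98 with each brain library left out.

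For another pair of members the adjusted p lay between 0.05 and 0.1. Tudor domain 5 (LOC5571149), a piRNA biogenesis factor in mice, averaged 15.3 ± 0.98 CPM in Gr34 brains and 11.1 ± 0.98 CPM in wild-type brains (SD, n = 3 each), a log2 fold change of 0.46 (SE 0.12, adjusted p 0.053). Bicaudal D averaged 182 ± 10.8 CPM in Gr34 and 220.3 ± 4.33 CPM in wild type, a log2 fold change of -0.28 (SE 0.08, adjusted p 0.080). In the authors' deposited table both pass, with adjusted p 0.0357 and 0.0253, and 4 members have an adjusted p under 0.05 in brain. In CPM, libraries of the 2 genotypes did not overlap for 5 of the 23 members that were higher and 1 that was lower in Gr34, whereas 28.6% of all genes tested did not overlap, 14.5% higher and 14.1% lower. In TPM this held for 4 higher and 1 lower, beside 25.3% of all genes, 14.6% higher and 10.6% lower. Bicaudal D and PIWI5 were apart in CPM and overlapped in TPM, and tudor domain 1, lower in Gr34, was apart in TPM and overlapped in CPM.

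Of the 6 PIWI and Argonaute genes tested in brain, 0 were called by edgeR or DESeq2 and 0 had an unadjusted p under 0.05. Their log2 fold changes ran from -0.15 for the AGO1a_b gene (SE 0.15) to 0.15 for AGO2 (SE 0.10). Argonaute-3 was at -0.09 (SE 0.10), PIWI4 at -0.13 (SE 0.10), PIWI5 at 0.08 (SE 0.08) and PIWI6 at -0.03 (SE 0.09). Of 15 small RNA partners and 8 germline mRNA partners tested in brain, 0 were called by edgeR or DESeq2, and 2 and 0 of them had an unadjusted p under 0.05.

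**Figure D3:**
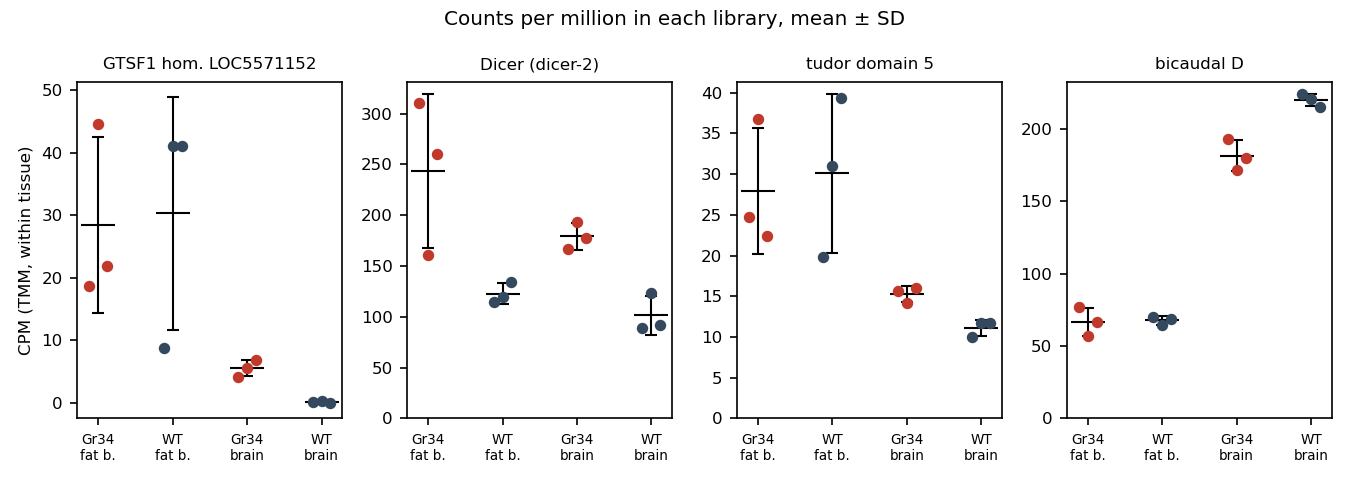
CPM in each library for the 2 members called in brain and the 2 next to the threshold (tudor domain 5 and bicaudal D), with points for libraries, Gr34 in red and wild type in dark blue, and bars for the mean ± SD of 3 libraries. GTSF1 homolog LOC5571152 is at 4.19 to 6.85 CPM in Gr34 brains and at most 0.256 CPM in wild-type brains, and spreads widely within both fat body groups.

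In fat body, 0 of the 30 members tested were called between Gr34 and wild type by edgeR, beside 0.234% of all 11558 genes. DESeq2 also called 0 members, where it called 214 genes higher and 167 lower of 13768. At an unadjusted p under 0.05 in edgeR there was 1 member, Dicer, beside 907 of all 11558 genes. DESeq2 also gave 1, beside 1416 of 13768 genes. Dicer had 49.8, 57.3 and 62.1 TPM in Gr34 fat bodies and 18.8, 34.4 and 45.0 TPM in wild-type fat bodies, so the lowest Gr34 library was above the highest wild-type one. In CPM it had 310.2, 161 and 260.1 in Gr34 fat bodies and 114, 119 and 134 in wild-type fat bodies. The log2 fold change was 0.99 (SE 0.31, unadjusted p 0.0146, adjusted p 0.41). In the authors' deposited DESeq2 table Dicer had a log2 fold change of 1.01 and an adjusted p of 0.0822. Of the alternatives run it passed only with all 12 libraries in one fit (adjusted p 0.0471). In CPM, Dicer and tudor domain 7A had groups that did not overlap, both higher in Gr34, beside 11% of all genes tested, 6.07% higher and 4.97% lower. In TPM only Dicer did, of the 30 members, beside 9.29% of all genes, 4.53% higher and 4.77% lower.

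On the TPM scale the level of most members followed the ovary markers from library to library in fat body, as it did for many other genes. In Gr34 the TPM of 27 of 30 members was lowest in replicate 1 and highest in replicate 2, the order of the ovary markers, and in wild type that of 27 was lowest in replicate 1 and highest in replicate 3, again as for the markers. Both held for 24 members, beside 53.3% of all genes tested. In CPM, scaled for composition, the order held for 16 members in Gr34 and 20 in wild type, and for 14 in both, beside 20.2% of all genes. AGO2, argonaute-3, PIWI4 and germ cell-less were among those that kept the order in neither genotype in CPM. In TPM the highest library was 3.92 to 9.84 times the lowest in Gr34, and 7.6 to 15.0 times in wild type, for the 8 members that were under 1 TPM in wild-type brain and at least 1 TPM in every fat body library. In TPM, Dicer, PIWI5 and tudor-KH broke the order in Gr34, and AGO2, PIWI3 and bicaudal D-related broke it in wild type. In a fit with the ovary marker level as a covariate, 0 members were called and 4 of 30 had an unadjusted p under 0.05. Of all 11558 genes, that fit called 134 higher and 109 lower, and 1950 had an unadjusted p under 0.05. Apart from that fit, the part of the ovary markers in the fat body results was not tested. Of 22 ovary markers tested between genotypes in fat body, 0 were called by edgeR or DESeq2 and 0 had an unadjusted p under 0.05.

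**Figure D4:**
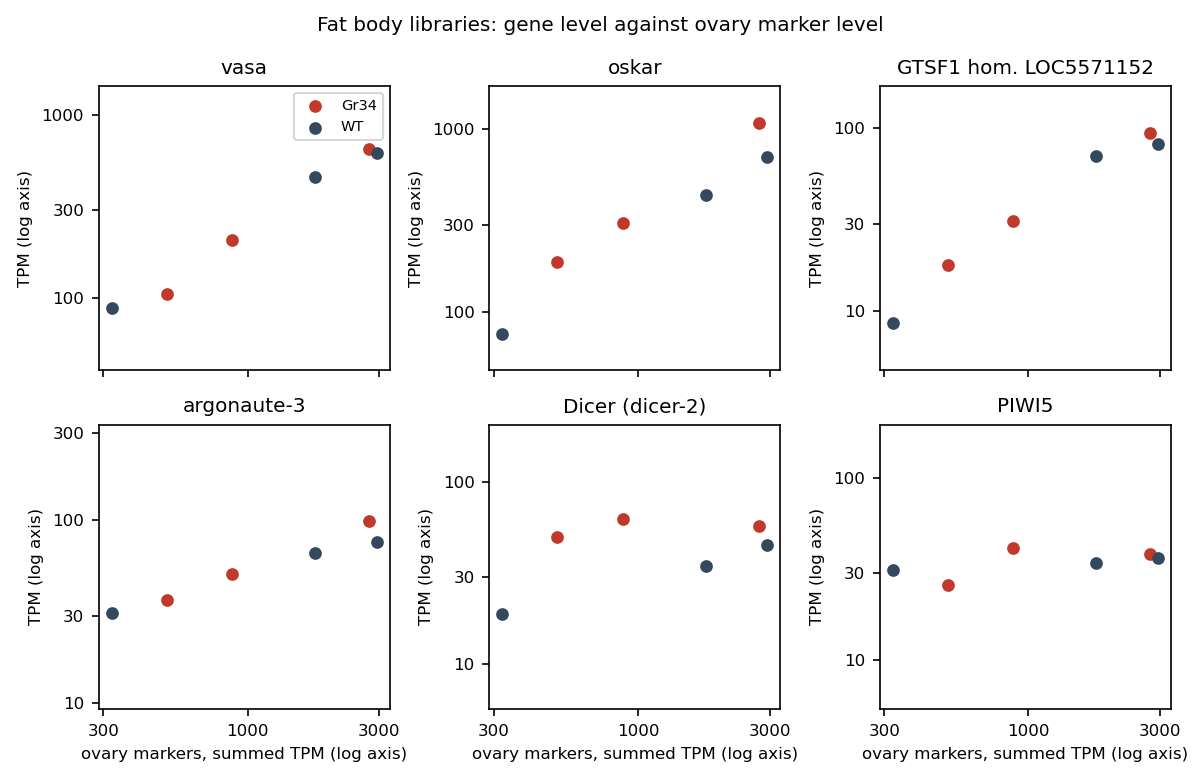
Level of 6 members in each fat body library (TPM, log axis) against the summed TPM of the ovary markers in the same library (log axis), with Gr34 in red and wild type in dark blue. Vasa, oskar, the GTSF1 homolog LOC5571152 and, less steeply, argonaute-3 have more TPM in libraries with more ovary marker TPM, and PIWI5 is nearly flat between 25.8 and 41.0 TPM. Dicer is higher in all 3 Gr34 libraries than in the wild-type ones.

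For oskar, vasa, PIWI3 and PIWI2 the genotypes overlapped in fat body. The log2 fold change in fat body was 0.44 (SE 0.63) for oskar, -0.24 (SE 0.58) for vasa, 0.05 (SE 0.58) for PIWI3 and 0.35 (SE 0.72) for PIWI2, each with adjusted p 1.00. GTSF1 homolog LOC5571152 had 17.8, 93.8 and 30.9 TPM in Gr34 fat bodies and 8.54, 70.0 and 81.4 TPM in wild-type fat bodies, and its log2 fold change was -0.09 (SE 0.60, adjusted p 1.00). The median log2 fold change in fat body was -0.018 over the 30 members and -0.00365 over all genes. Of 20 small RNA partners and 10 germline mRNA partners tested in fat body, 0 were called by edgeR or DESeq2, and 2 and 0 of them had an unadjusted p under 0.05.

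Set against vasa in the same fat body library, 3 of 9 other germline genes had TPM ratios that did not overlap between genotypes, all higher in Gr34, beside 7.23% of all genes tested, 5.42% higher and 1.81% lower. Oskar was 1.79, 1.66 and 1.47 times vasa in Gr34 fat bodies and 0.863, 0.946 and 1.13 times vasa in wild-type fat bodies. PIWI2 was 0.0899, 0.0994 and 0.0897 times vasa in Gr34 and 0.0327, 0.065 and 0.07 times in wild type. Nanos 2 was 0.0302, 0.0195 and 0.0224 times vasa in Gr34 and 0.0115, 0.0181 and 0.0135 times in wild type. With the ovary marker level as a covariate, the log2 fold change was 0.65 for oskar (LOC5577338, adjusted p 0.0956) and 0.71 for PIWI2 (LOC5570107, adjusted p 0.11), so edgeR called neither. Nanos 2 (LOC5575034) was not called either: its lowest adjusted p over the alternatives run for fat body, that fit included, was 0.409. Apart from vasa, the 9 genes were the members with the largest excess in fat body between the wild-type tissues, from 6.16-fold for boule upward. Without the covariate, the edgeR log2 fold change was 0.44 (SE 0.63) for oskar, 0.35 (SE 0.72) for PIWI2 and 0.32 (SE 0.58) for nanos 2, none called. The 9 genes and both measures were chosen after their values were seen. All 9 ratios divide by the same vasa values and are not independent. Their number can therefore not be weighed against the share over all genes.

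The difference between tissues was tested as the genotype effect in fat body minus that in brain over all 12 libraries. It was called for 1 of 30 members, beside 0.467% of 12859 genes, 0.319% higher and 0.148% lower. It was GTSF1 homolog LOC5571152, at -5.67 (SE 1.04, adjusted p 0.0431), and the Gr34 excess was in brain. The call was lost when any of the 11 libraries other than wild-type fat body replicate 1 was left out, with adjusted p from 0.0523 to 0.182 and log2 values from -7.01 to -5.20. For Dicer the same difference was 0.23 (SE 0.34, adjusted p 0.99), so its effect was not shown to differ between tissues.

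**Figure D5:**
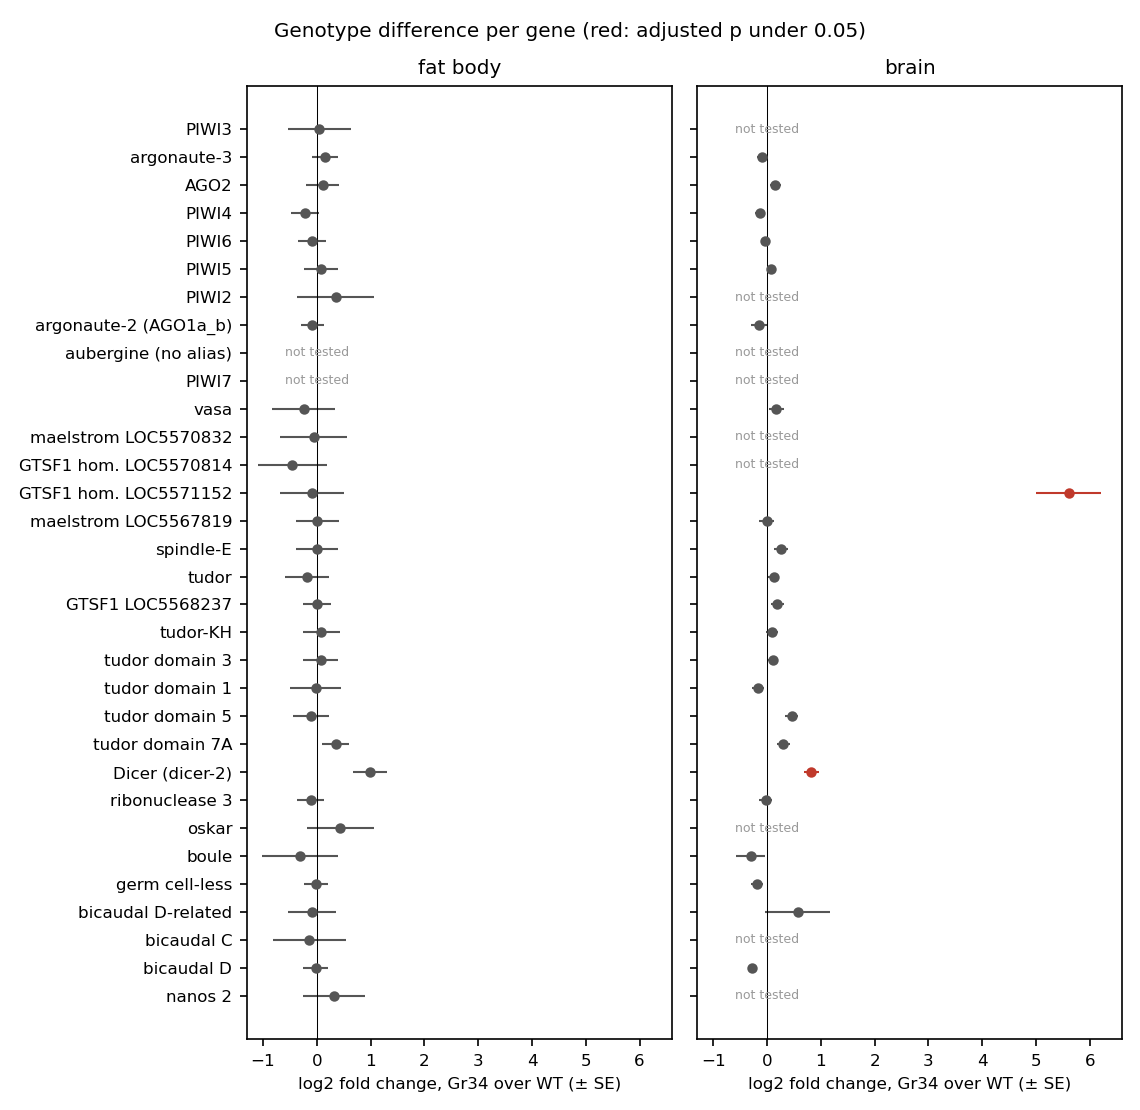
Log2 fold change of Gr34 over wild type with SE for each member in fat body (left) and brain (right), in red where the adjusted p is under 0.05. In fat body the bars are wider and Dicer at 0.99 has the largest value, while in brain GTSF1 homolog LOC5571152 at 5.61 and Dicer at 0.82 stand out.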

How the data were processed

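Polyadenylated RNA went into NEBNext Ultra II libraries primed at random, per the labels' protocols. The submitters' processing notes name FastQC, STAR, featureCounts, Subread and DESeq2; they give no version, and the build, the strand setting and the treatment of multi-mapped reads are not given there or in the labels. The authors deposited estimated counts, which are not all whole (58 of the 384 values of these genes have a fraction) and were rounded here, and TPM. Per the file headers, the authors also made DESeq2 tables with a log2 fold change, a p-value, a test score and a mean signal for each gene. All 32 genes have the start and end of RefSeq AaegL5.0; 12 overlap another gene, 7 of them on the opposite strand, so their reads are uncertain.

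Each comparison was fitted on the whole table with edgeR 4.0.16 in R 4.3.3 (TMM, filterByExpr with a count of 10 and a total of 15, robust quasi-likelihood F-test, two-sided, Benjamini-Hochberg, threshold 0.05). CPM values are TMM-scaled within a tissue. TPM was tested with limma 3.58.1 as an alternative, as were DESeq2 1.42.0, other scalings and each library left out. The scripts were tested on simulated counts. Floors cover counting error only. The members, partner lists and marker lists were chosen with earlier results of these data known; genes named in full are those called between genotypes, every PIWI, Argonaute and gametocyte-specific factor, the 3 most abundant of each role and the 5 largest tissue differences in each direction, and others were added to describe a role.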

Additional observations from a re-analysis of the deposited data

Results flagged for a closer look

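GTSF1 homolog LOC5571152 was flagged because the difference of its genotype effect between tissues was called. The log2 fold change of Gr34 over wild type in fat body minus that in brain was -5.67 (SE 1.04, edgeR quasi-likelihood adjusted p 0.0431, 12 libraries). The call was kept in 1 of 12 fits with 1 library left out, and in 5 of all 19 alternatives. The excess was in brain, where all 3 Gr34 libraries were above all 3 wild-type ones, and the fat body groups overlapped. Fat body libraries ran from 17.8 to 93.8 TPM in Gr34 and from 8.54 to 81.4 TPM in wild type. An excess of the size seen in brain TPM could be missed there.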

How the results depend on the processing

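In brain the members called numbered 2, against 4 with DESeq2, 1 with all 12 libraries in one fit, and 1 to 2 with 1 library left out. In fat body the count was 0, against 1 with all 12 libraries in one fit, and 0 without any 1 library. The difference between tissues had 1 call, against 0 with limma on log2(TPM + 1), 0 with log2(TPM + 0.1), 0 with library size only (added after seeing the data), and 0 to 1 with 1 library left out. The tissue comparison had 19 calls in each genotype, against 12 in Gr34 with log2(TPM + 1) and 12 in wild type with both TPM offsets, and 17 to 23 in Gr34 and 14 to 25 in wild type with 1 library left out. A fit with the replicate number as a block called 2 members in brain, 0 in fat body and 1 in the difference. It called 17 between the tissues of Gr34 and 16 between those of wild type. Deviations of same-numbered libraries of the 2 genotypes had r of 0.415, 0.455 and -0.356 in fat body and -0.055, 0.145 and 0.234 in brain. Differently numbered fat body libraries reached 0.587. With 3 libraries per group, these values do not decide whether the numbers mark pairs. Among 2182 values of single genes under the alternatives run, no called one changed direction. The causes of lost calls were not tested. PIWI2, PIWI3, oskar and the maelstrom gene that was low in brain had too few brain counts to be tested between genotypes there. In fat body the libraries of a group spread widely, which limits what the test can find.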

Other observations

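The genes around the members called in brain were read after their values were seen. Of all 11848 genes tested in brain, 4.6% were called higher in Gr34 and 4.26% lower. Whether calls gather near these members was not tested. Of the 20 genes nearest to Dicer, 10 on each side, 16 were tested in brain, and 2 were called higher in Gr34 and 0 lower. Both are described as probable cytochrome P450 9f2, LOC5579929 at a log2 fold change of 1.12 (adjusted p 0.044) and LOC5564756 at 0.66 (adjusted p 0.0282). Of the 20 nearest to GTSF1 homolog LOC5571152, 13 were tested, and 0 were called higher and 2 lower, LOC5571141 at -1.63 (adjusted p 0.0263) and LOC110676499 at -2.07 (adjusted p 0.0317).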
